A study of Mus musculus with 2 samples.

Results

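Smooth muscle cells of the newborn mouse lung were described from 1 single-cell RNA-seq sample, wild-type peripheral lung cells sorted at postnatal day 3 and loaded on the 10x Chromium 3′ v3 system. The other sample of the study, used at the end, was bulk RNA from PDGFRA+ cells sorted at the same age from peripheral lung of Pdgfra-H2BGFP mice, in which a nuclear GFP reports Pdgfra. Both samples are labelled as control lungs, the labels name no treatment, and they do not state whether animals were pooled. With 1 sample in each group no difference between groups of cells has a replicate check, so every ratio below is a description of 1 library and carries no p-value.

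Of the 11306 cells in the table, 131 were called smooth muscle cells. They were chosen by the values of 18 genes and of the mitochondrial genes in each cell, so these values are given as a description only. A cell had to have at most 10% of its values from mitochondrial genes, Acta2 above 0, and at least 3 of Myh11, Cnn1, Des, Lmod1, Pln and Synpo2 above 0. It could have fewer than 2 of the myofibroblast genes Aspn, P2ry14, Agt and Pdgfra above 0, and fewer than 3 of the pericyte genes Cspg4, Kcnk3, Higd1b, Cox4i2 and Trpc6. Ptprc, the pan-leukocyte CD45 gene, and Pecam1, the endothelial CD31 gene, had to be at 0. The mitochondrial limit left 10660 cells, so the class held 1.23% of kept cells (exact 95% interval 1.03 to 1.46%, counting error only). Of 615 cells with at least 3 of the 6 smooth muscle genes, 611 had Acta2 and 497 also had Ptprc and Pecam1 at 0. Of those 497 cells, 340 were then left out for myofibroblast genes and 26 for pericyte genes.

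Smooth muscle cells wrap airways and blood vessels and set their calibre by contraction. Calcium entering the cell or released from its stores activates myosin light chain kinase, myosin pulls on actin filaments, and cyclic nucleotide signals relax the cell. Around growing arteries the same cells lay down elastic layers, and Notch signals from the endothelium help to specify them. Much of the contractile gene programme is switched on by serum response factor with its partner myocardin at promoter elements called CArG boxes. Airway smooth muscle is known to depend on Hedgehog signals and FOXF1, and alveolar myofibroblasts, which share many of its genes, on PDGFRA.

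The smooth muscle cells had a median of 2351 detected genes per cell (1264 to 3430) and 783136 corrected UMIs in all. They were set beside 4 other groups of cells in the same library. The 340 cells left out for myofibroblast genes, called set-aside cells here, had a median of 2868 detected genes. The 65 pericyte-marked cells had a median of 2216, and the 319 myofibroblast-marked cells, with Acta2 and myofibroblast genes but fewer than 3 smooth muscle genes, had 2787. All 10529 other kept cells, which include those 3 groups, had 2059. A level is the summed corrected UMIs of a group scaled to a total of 1000000 (CPM), and a log2 ratio has 1 CPM added to both sides. A share of members with a gene detected is set beside the share of the 7132 Ptprc-positive cells of the library, whose median was 1818 detected genes against 2351 in the members. In the smooth muscle cells 3 corrected UMIs, the floor used here, make 3.83 CPM. The median log2 ratio over all genes with at least 20 UMIs was -0.17 against all other kept cells, -0.29 against set-aside cells, -0.11 against pericyte-marked cells and -0.30 against myofibroblast-marked cells, so single ratios read against these shifts.

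The genes that chose the cells had these levels, given without a reading. Acta2, smooth muscle alpha-actin, was at 9099 CPM in smooth muscle cells and 399.5 CPM in all other kept cells, and single smooth muscle cells ran from 1161 to 23449 CPM. Myh11, the smooth muscle myosin heavy chain, was at 1032 and 76.1 CPM in the same order. Lmod1, an actin filament nucleator, was at 525 CPM in smooth muscle cells and 9.54 CPM in all others. Des, the intermediate filament desmin, was at 503 and 58.3 CPM, Cnn1, calponin, at 232 and 13.7 CPM, and Synpo2 at 103 and 8.20 CPM. Pln, phospholamban, was detected in 2.29% of smooth muscle cells and 0.0140% of Ptprc-positive cells, so it chose almost none of them. Of the members, 51 had 3 of the 6 genes, 53 had 4, 25 had 5 and 2 had all 6. Aspn was detected in 51.9% of the members, 42.1% of set-aside cells, 32.9% of myofibroblast-marked cells and 2.90% of Ptprc-positive cells. In all, 79 members had 1 of the 4 myofibroblast genes while 52 had none. At the threshold, the 51 cells with 3 of the 6 genes had Acta2 at 7085 CPM, Eln at 20755 CPM and Hhip at 16.9 CPM. The 28 cells just outside, with 2 of the 6, had 3773, 11440 and 133 CPM of the same genes.

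The members carried part of the vascular smooth muscle markers and few airway markers. Map3k7cl was at 516 CPM in smooth muscle cells, 24.7 in set-aside cells and 7.43 in all other kept cells. Notch3, the Notch receptor of mural cells, was at 314 CPM in smooth muscle cells against 27.5 in set-aside cells. Its target Heyl was at 231 against 20.4 CPM, and Tinagl1, a matrix protein, at 193 against 14.7 CPM, again with smooth muscle cells first. Rgs5, a G-protein regulator known from mural cells, was lower, at 35.8 CPM in smooth muscle cells against 74.1 in set-aside cells and 432 in pericyte-marked cells, and Rem1 was at 34.5 against 59.8 and 94.2 CPM. Gja4, the arterial connexin 37, was at 7.66 CPM in smooth muscle cells, 1.42 in set-aside cells and 80.3 in pericyte-marked cells. Over set-aside cells 4 of 7 vascular markers tested had a log2 ratio of 1 or more and 1 one of -1 or less, beside 5.32% and 15.4% of all genes. Over pericyte-marked cells 3 of 8 had a ratio of 1 or more and 3 one of -1 or less, beside 12.4% and 11.8% of all genes.

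Among the airway markers, Hhip, a Hedgehog inhibitor that Hedgehog itself induces, was at 8.94 CPM in smooth muscle cells and 278 CPM in set-aside cells. Foxf1 was at 40.9 against 268 CPM, Gata5 at 3.83 against 67.0 CPM and Nog, the BMP inhibitor noggin, at 2.55 against 29.4 CPM. Cdh4 and Mapk4 were listed at 0 in the smooth muscle cells. Lgr6 stood between, at 47.2 CPM in smooth muscle cells and 103 CPM in set-aside cells. Actc1, cardiac alpha-actin, was the exception among the airway markers at 1122 CPM in smooth muscle cells against 112 CPM in set-aside cells. It was detected in 84.0% of the members and 1.40% of Ptprc-positive cells, and together with Map3k7cl in 101 of the 131.

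**Figure D1:**
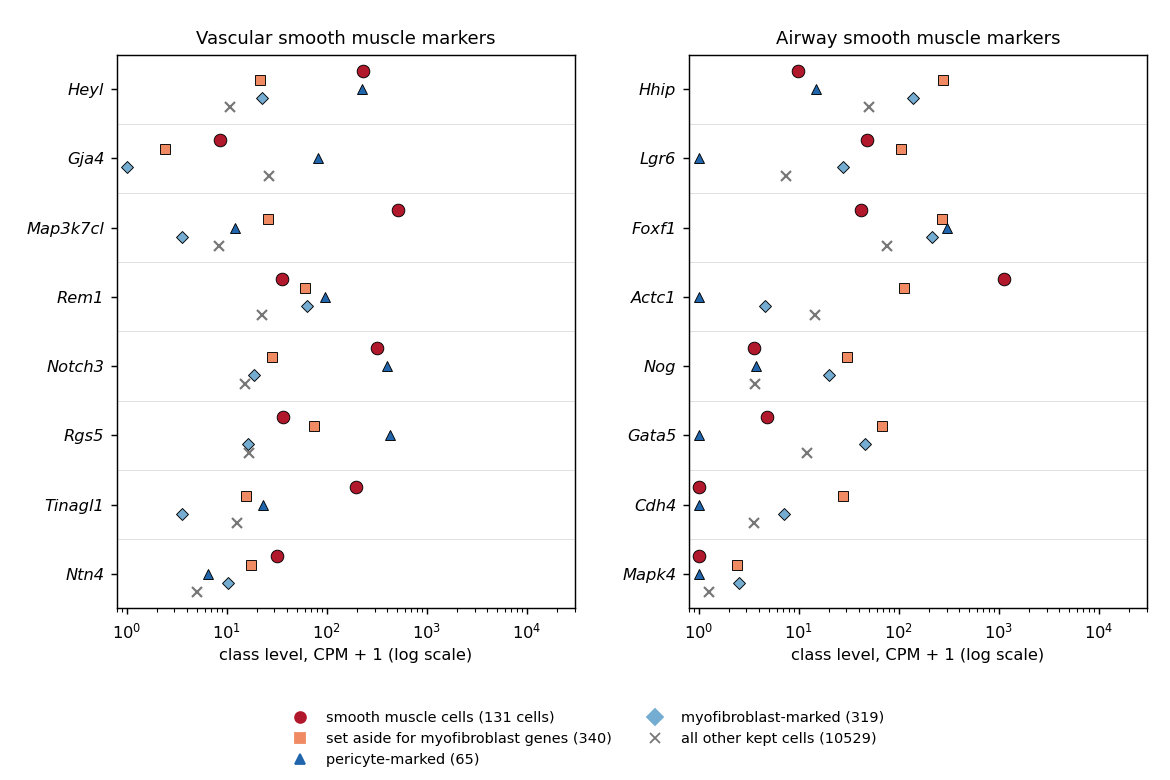
Levels of 8 vascular and 8 airway smooth muscle markers in 5 groups of cells of the single-cell library, as CPM + 1 on a log axis; each symbol is 1 group. Map3k7cl, Notch3, Heyl and Tinagl1 are higher in smooth muscle cells than in set-aside cells, while Hhip, Foxf1, Gata5, Nog and Cdh4 are higher in the set-aside cells.

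Counted cell by cell, 112 of the 131 members (85.5%, exact 95% interval 78.3 to 91.0%) had at least 2 vascular markers and more of them than airway markers. Only 6 members (4.58%, 1.70 to 9.70%) were airway-marked by the same count, and 13 were undecided. Of the 340 set-aside cells, 215 (63.2%) were airway-marked, 24 vascular-marked and 101 undecided. In the 131 members the airway part of their name was therefore not borne out by its markers, and they are called smooth muscle cells here. The rule itself had left out the set-aside cells, most of them airway-marked, so this count depends on the rule. Whether airway smooth muscle was among the cells left out was not tested. Each contrast with set-aside cells follows a split by genes of the rule and is a description. The 6 airway-marked members held 35744 corrected UMIs, where 3 UMIs make 83.9 CPM. Against the 112 vascular-marked members, 6.36% of 5065 genes had a log2 ratio of 1 or more and 30.6% one of -1 or less, so no gene of that comparison is named.

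Immune, epithelial and endothelial markers were low in the members. The 12 immune markers summed to 615 CPM in smooth muscle cells against 27329 CPM in all other kept cells, with S100a9 at 146 and 10433 CPM. The 12 epithelial markers summed to 601 against 11242 CPM, of which Sftpc, surfactant protein C, gave 458 CPM in smooth muscle cells, and Epcam and Nkx2-1 were listed at 0. Sftpc was detected in 89.3% of the members and 94.0% of Ptprc-positive cells, which do not make it, so this share is background. The 10 endothelial markers summed to 151 against 1170 CPM. Of 11 cardiac muscle markers in the table, summing to 85.6 against 25.4 CPM, Myh6, Myh7, Tnni1, Actn2 and Ttn were listed at 0 in smooth muscle cells, while Tnnt2, cardiac troponin T, was at 47.2 CPM. Some lists of other cell types summed higher in smooth muscle cells than in all other kept cells. Fibroblast markers summed to 1341 against 1126 CPM, with Itga8 and Clec3b at 282 and 105 CPM in smooth muscle cells and Dcn and Lum at 21.7 and 1.28 CPM. Most fibroblast markers were nevertheless lower, with 2 of 12 at a log2 ratio of 1 or more over all other kept cells and 8 at -1 or less. All genes gave 10.6% and 23% by this measure, and the median of the list was -1.42. Schwann cell and neuron markers summed to 49.8 against 24.1 CPM, nearly all from Uchl1, and S100b and Tubb3 were at 0. Skeletal muscle markers summed to 38.3 against 23.6 CPM, mostly from Tnnt3 at 31.9 against 2.39 CPM, with Myh3 and Ckm at 0. Mcpt8, a basophil protease, had 67 UMIs, all in 1 member. Pericyte markers summed to 2104 CPM in smooth muscle cells against 13939 CPM in pericyte-marked cells, with Vtn and Lamc3 at 0 in the members, and myofibroblast markers to 682 against 3097 CPM in myofibroblast-marked cells. The part of these cells or their RNA in the results below was not tested.

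Contractile filament genes outside the rule were high in the members. Tagln, transgelin, was detected in every member, from 1370 to 16388 CPM per cell with a median of 6481. Over the group it was at 6817 CPM in smooth muscle cells, 4946 in set-aside cells, 670 in pericyte-marked cells, 1742 in myofibroblast-marked cells and 374 in all other kept cells. Myl9, the regulatory myosin light chain, was at 2155 CPM in smooth muscle cells, 1005 in set-aside cells and 118 in all others. Tpm2, beta-tropomyosin, was at 1813 CPM in smooth muscle cells, 904 in set-aside cells and 107 in all others. Actg2, enteric actin, was at 867 CPM in smooth muscle cells, below its 1201 CPM in set-aside cells. Acta2, Actg2 and Actc1 code for nearly identical proteins, and the sources used here do not say how their 3′ reads were told apart, so the split between them is uncertain.

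Of 32 contractile filament genes tested, 23 had a log2 ratio of 1 or more over all other kept cells and 3 one of -1 or less, with a median of 1.47. The background was 10.6% of 15472 genes at 1 or more and 23% at -1 or less. This contrast was used to choose the cells, so the count is a description. The 3 low genes were Tes, a focal adhesion protein, Sorbs2 and Pdlim3, an alpha-actinin-binding LIM protein. Ppp1r14a, the inhibitor of myosin phosphatase, was at 765 CPM in smooth muscle cells against 144 in set-aside cells and 1435 in pericyte-marked cells. Ldb3, a Z-disc protein best known from striated muscle, was at 38.3 CPM in smooth muscle cells, 4.75 in set-aside cells and 0.443 in all other kept cells. Mylk, the light chain kinase, and Cald1, caldesmon, differed little from the set-aside cells, at 566 against 609 CPM and 1991 against 2288 CPM.

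Promoter windows from RefSeq (GRCm38.p6, 250 bases before to 50 after the start) were found for 34 of 40 genes, those of the contractile list, the smooth muscle genes of the rule and Actc1, and Myh11, Tagln and Actg2 were among those without one. A CArG box, searched on both strands, lay in the windows of 7 of these genes (20.6%) and in those of 488 of 27025 genes of the table (1.81%). A match is a description and not a binding site. The 4 stretches below come from Actc1, the gene of highest ratio over all other kept cells, and from Myl9, Vcl (vinculin, which ties actin to adhesions) and Cnn2 (calponin 2), in which the box is spelled differently or lies at a different distance from the start. Each is given 5′ to 3′ on the strand of its gene, with the CArG box in capitals. Each runs from 250 bases before the RefSeq start to the last base before the first GENCODE M21 exon of the gene met from there.
Actc1: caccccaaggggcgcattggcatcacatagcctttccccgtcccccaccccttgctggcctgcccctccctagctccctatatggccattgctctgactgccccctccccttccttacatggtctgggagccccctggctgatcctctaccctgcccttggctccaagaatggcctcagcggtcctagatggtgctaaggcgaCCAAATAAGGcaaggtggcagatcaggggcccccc
Myl9: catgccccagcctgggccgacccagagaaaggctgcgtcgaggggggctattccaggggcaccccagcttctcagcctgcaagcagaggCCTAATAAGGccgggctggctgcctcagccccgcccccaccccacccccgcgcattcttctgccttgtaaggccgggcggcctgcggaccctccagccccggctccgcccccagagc
Vcl: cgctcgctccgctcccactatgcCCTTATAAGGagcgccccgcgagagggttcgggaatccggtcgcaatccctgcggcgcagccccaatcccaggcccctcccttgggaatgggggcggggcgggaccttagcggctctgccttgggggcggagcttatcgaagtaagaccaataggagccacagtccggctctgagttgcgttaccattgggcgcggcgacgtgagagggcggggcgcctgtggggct
Cnn2: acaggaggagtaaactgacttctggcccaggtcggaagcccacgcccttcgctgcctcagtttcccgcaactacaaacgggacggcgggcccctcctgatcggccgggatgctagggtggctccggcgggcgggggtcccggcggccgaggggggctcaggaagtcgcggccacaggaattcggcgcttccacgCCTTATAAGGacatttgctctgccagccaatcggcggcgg

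The Actc1 stretch is chr2:114052888-114053125 on the minus strand, and its box starts 47 bases before the RefSeq start of transcription. The annotated Actc1 gene spans chr2:114047282-114053548, so this stretch lies within the gene and not before all of it. The Myl9 stretch is chr2:156775214-156775419 on the plus strand with its box 161 bases before the start. The Vcl stretch is chr14:20929148-20929397 on the plus strand with its box 227 bases before, and the Cnn2 stretch chr10:79988350-79988583 on the plus strand with its box 56 bases before. Vcl and Cnn2 have the same 10 letters. Vcl was at 349 CPM in smooth muscle cells and 76.9 CPM in all other kept cells, a log2 ratio of 2.17, and Cnn2 at 343 and 211 CPM, a log2 ratio of 0.70. The windows of Acta2, Cnn1, Des, Lmod1, Pln and Synpo2 held no such match, which says nothing of the rest of these genes.

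Transcription factors separated the members from the set-aside cells in both directions. Gata6, a factor of vascular smooth muscle, was at 267 CPM in smooth muscle cells and 21.8 CPM in set-aside cells, and detected in 70.2% of members against 2.34% of Ptprc-positive cells. Foxc1 was at 75.3 against 3.32 CPM, Foxc2 at 21.7 against 1.90 CPM and Foxs1 at 85.6 against 7.60 CPM. Ebf1 was at 243 against 29.0 CPM, though far higher in pericyte-marked cells at 1233 CPM. In the other direction, Foxf2 was at 8.94 CPM in smooth muscle cells against 142 in set-aside cells, Tbx4 at 39.6 against 230.4 and Tbx2 at 97.0 against 382, all 3 being factors of lung mesenchyme. Myocd, the SRF partner myocardin, was at 71.5 CPM in smooth muscle cells and 83.6 in set-aside cells, against 2.77 in pericyte-marked cells. Srf itself was at 53.6, 52.7 and 38.8 CPM in these 3 groups. Of 28 factors tested against set-aside cells, 10 had a log2 ratio of 1 or more and 9 one of -1 or less, beside 5.32% and 15.4% of 10035 genes.

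Notch receptors, ligands and targets stood higher in the members than in set-aside cells. Notch3 was detected in 73.3% of members and Heyl in 69.5%, against 1.96% and 1.53% of Ptprc-positive cells. Hey2, a target known from arteries, was at 77.9 CPM in smooth muscle cells, 7.12 in set-aside cells and 2.77 in pericyte-marked cells. Jag1, a Notch ligand, was at 130 CPM in smooth muscle cells, 11.4 in set-aside cells and 13.8 in pericyte-marked cells. Nrarp, a feedback target, was at 57.5 against 6.17 CPM in set-aside cells and 72.0 in pericyte-marked cells. Of the 9 Notch genes tested against set-aside cells, 6 had a log2 ratio of 1 or more and 0 one of -1 or less, beside 5.32% and 15.4% of all genes, with a median of 3.03. Against pericyte-marked cells the median over 8 genes was -0.31, and Notch3 and Heyl were at 396 and 224 CPM there. Dll1 and Dll4, endothelial ligands among others, were listed at 0 in the members. The motif GTGGGAA, searched on both strands as the binding letters of the Notch partner RBPJ, lay in the promoter window of 1 of 12 Notch and vascular marker genes (8.33%), Hey2, and of 7.25% of all genes. The set held 17 genes, and Hes1, Hey1, Heyl, Nrip2 and Map3k7cl had no window.

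Hedgehog and Wnt genes were lower in the members than in set-aside cells. Besides Hhip, Ptch1, the Hedgehog receptor and target, was at 37.0 CPM in smooth muscle cells against 150 CPM in set-aside cells, and Gli1 at 11.5 against 30.9 CPM. None of 9 Hedgehog genes had a log2 ratio of 1 or more over set-aside cells and 6 had one of -1 or less, beside 5.32% and 15.4% of all genes. Over all other kept cells 2 of 11 had a ratio of 1 or more and 1 one of -1 or less, with a median of 0.25, and over pericyte-marked cells 0 of 4 had either. Of 30 Wnt, FGF and BMP genes, 1 was higher and 19 lower by the same measure, with a median of -1.93, or -1.48 when a gene at 0 takes the floor value. Over pericyte-marked cells 5 of 13 of these genes were higher and 3 lower, with a median of 0.42. Wnt5a was at 5.11 CPM in smooth muscle cells against 412 CPM in set-aside cells, Fgf18 at 20.4 against 289 CPM and Bmp4 at 10.2 against 159 CPM. The 1 gene higher in the members was Bmp3, at 19.2 against 2.37 CPM. Tgfb2 was at 372 CPM in smooth muscle cells, 211 in set-aside cells and 47.4 in all other kept cells, and was detected in 77.9% of members and 4.53% of Ptprc-positive cells.

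**Figure D2:**
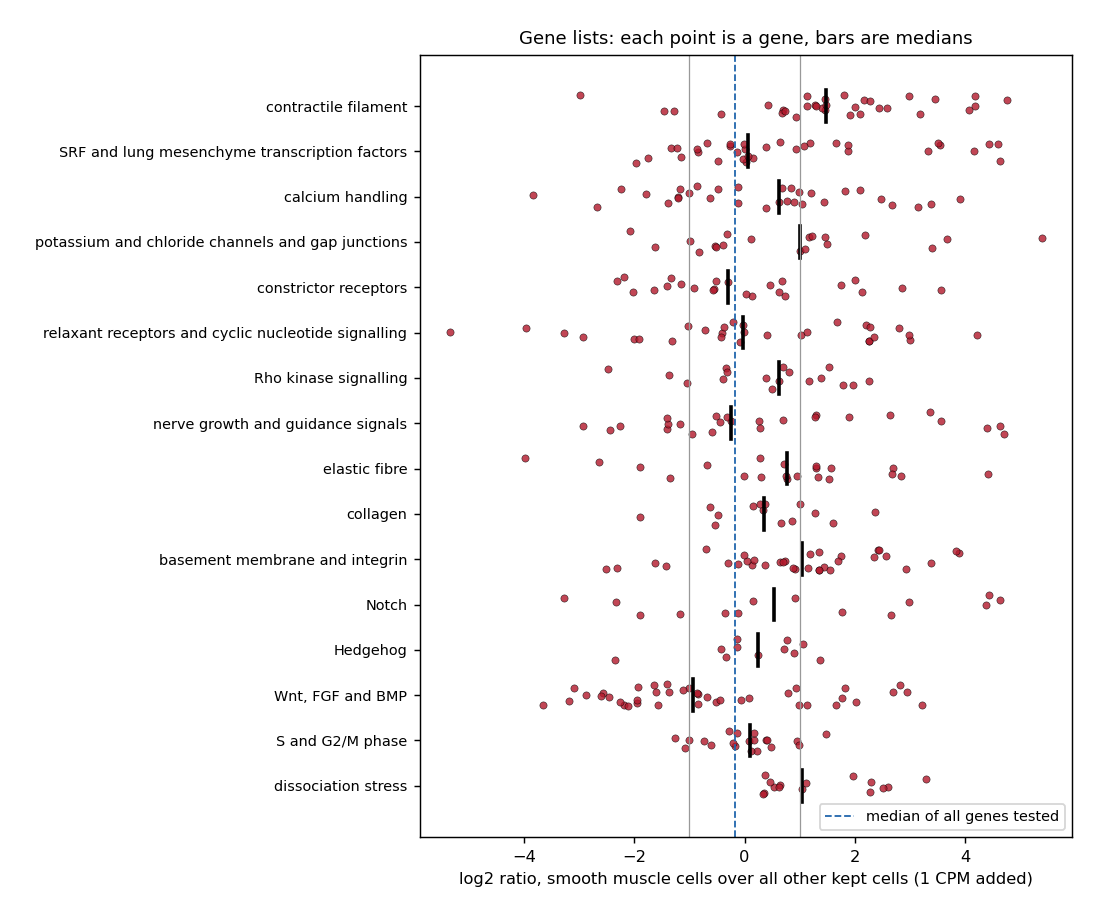
Log2 ratio of smooth muscle cells over all other kept cells for each tested gene of 16 lists, with 1 CPM added; black bars are list medians, grey lines mark 1 and -1, and the dashed line is the median of all genes tested, -0.17. Contractile, channel, basement membrane and stress lists have medians over 1, and the Wnt, FGF and BMP list has a median of -0.93.

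Genes of calcium release and of membrane channels were detected in part of the members. Cacna1c, the pore of the L-type calcium channel, was at 110 CPM in smooth muscle cells and 11.6 CPM in all other kept cells, and detected in 48.9% of members against 1.85% of Ptprc-positive cells. Jph2, which holds the store membrane to the surface, was at 60.0 against 4.86 CPM. Irag1, through which cyclic GMP restrains store release, was at 57.5 against 2.91 CPM. Atp2a2, the store calcium pump, was at 226 CPM in smooth muscle cells and 82.6 CPM in all others. Of the release channels, Itpr1 was at 61.3 CPM in smooth muscle cells against 33.6 CPM in all others, Ryr2 at 16.6 against 1.77 CPM, and Itpr3 and Ryr3 were listed at 0. The store-operated channel gene Orai1 was lower, at 15.3 against 103 CPM, and was detected in 39.4% of Ptprc-positive cells. Of 31 calcium genes tested over all other kept cells, 10 reached a log2 ratio of 1 and 9 were at -1 or below, beside 10.6% and 23% of all genes. The list median over set-aside cells was 0.32, with 4 of 22 genes higher and 7 lower by these limits. Over pericyte-marked cells it was 0.39, with 5 of 20 genes higher and 4 lower. In set-aside and pericyte-marked cells, Cacna1c was at 52.7 and 49.9 CPM, Jph2 at 25.6 and 33.2 CPM and Irag1 at 12.3 and 2.77 CPM.

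Kcna5, the voltage-gated potassium channel Kv1.5 known from pulmonary arteries, had the highest ratio of the channel list. It was at 84.3 CPM in smooth muscle cells, 4.27 in set-aside cells, 0 in pericyte-marked cells and 1.02 in all other kept cells. It was detected in 39.7% of members (exact 95% interval 31.3 to 48.6%) against 0.21% of Ptprc-positive cells. Ano1, a calcium-activated chloride channel, was at 58.7 CPM in smooth muscle cells, 7.60 in set-aside cells and 19.4 in pericyte-marked cells. Kcnmb1, the smooth muscle subunit of the large-conductance potassium channel, was at 24.3 against 6.65 CPM in set-aside cells, while its pore Kcnma1 was at 6.38 against 40.8 CPM. Kcnj8 and Abcc9, which form an ATP-sensitive potassium channel, were at 3.83 and 11.5 CPM in smooth muscle cells and 69.2 and 85.9 CPM in pericyte-marked cells. Of 19 channel and gap junction genes tested over all other kept cells, 10 had a log2 ratio of 1 or more and 2 one of -1 or less, beside 10.6% and 23% of all genes. The list median over set-aside cells was -0.64, with 3 of 11 genes higher and 4 lower by these limits. Over pericyte-marked cells it was -1.93, with 4 of 10 genes higher and 6 lower. Over myofibroblast-marked cells it was -0.52, with 4 of 13 genes higher and 6 lower.

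Among constrictor receptors, those for endothelin were the most widely detected. Ednra was at 146 CPM in smooth muscle cells, 85.0 in set-aside cells and 377 in pericyte-marked cells, and detected in 50.4% of members against 3.95% of Ptprc-positive cells. Ednrb was at 123 CPM in smooth muscle cells, 74.1 in set-aside cells and 5.54 in pericyte-marked cells, and detected in 40.5% of members against 3.18% of Ptprc-positive cells. Tbxa2r, the thromboxane receptor, was at 61.3 CPM in smooth muscle cells against 16.6 CPM in set-aside cells. P2rx1, an ATP-gated channel that answers sympathetic ATP, was at 44.7 against 2.37 CPM. F2r, a thrombin receptor, was lower, at 53.6 CPM in smooth muscle cells, 177 in set-aside cells and 343 in pericyte-marked cells. Over all other kept cells 5 of 23 constrictor receptors had a log2 ratio of 1 or more and 7 one of -1 or less. All genes gave 10.6% and 23%, and the median of the list was -0.29. Over set-aside cells 2 of 9 were higher and 3 lower by this measure, and over pericyte-marked cells 3 of 7 and 4. Of the receptors for acetylcholine and noradrenaline, Chrm2 was at 2.55 CPM in the members, Adra1b at 3.83, and Chrm3, Adra1a, Adra2a and Adra2b were listed at 0. A count of 0 in 131 cells allows a share of up to 2.29% when 3 cells are taken as the limit, and its exact 95% interval reaches 2.78%.

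On the relaxing side, Ramp1, a partner subunit of the CGRP receptor, was at 336 CPM in smooth muscle cells, 75.5 in set-aside cells and 2.77 in pericyte-marked cells. It was detected in 79.4% of members and 24.3% of Ptprc-positive cells. Calcrl, the receptor it pairs with, was at 1.28 CPM in smooth muscle cells against 91.8 CPM in all other kept cells. The nitric oxide receptor genes Gucy1a1 and Gucy1b1 were at 365 and 152 CPM in smooth muscle cells, 145 and 73.6 CPM in set-aside cells, and 3634 and 1429 CPM in pericyte-marked cells. Prkg1, the kinase that cyclic GMP activates, was at 77.9 CPM in smooth muscle cells and 85.9 CPM in pericyte-marked cells. Pde3a, a cyclic AMP phosphodiesterase, was at 184 CPM in smooth muscle cells, 22.8 in set-aside cells and 111 in pericyte-marked cells. Pde5a, which breaks down cyclic GMP, ran the other way, at 93.2 CPM in smooth muscle cells, 599 in set-aside cells and 2460 in pericyte-marked cells. Adcy5, an adenylyl cyclase, was at 58.7 CPM in smooth muscle cells against 8.31 to 11.4 CPM in those groups. Over all other kept cells 12 of 29 genes of this list had a log2 ratio of 1 or more and 8 one of -1 or less. All genes gave 10.6% and 23%, and the median of the list was -0.03. Over set-aside cells 7 of 18 were higher and 5 lower by this measure, and over pericyte-marked cells 3 of 14 and 7.

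**Figure D3:**
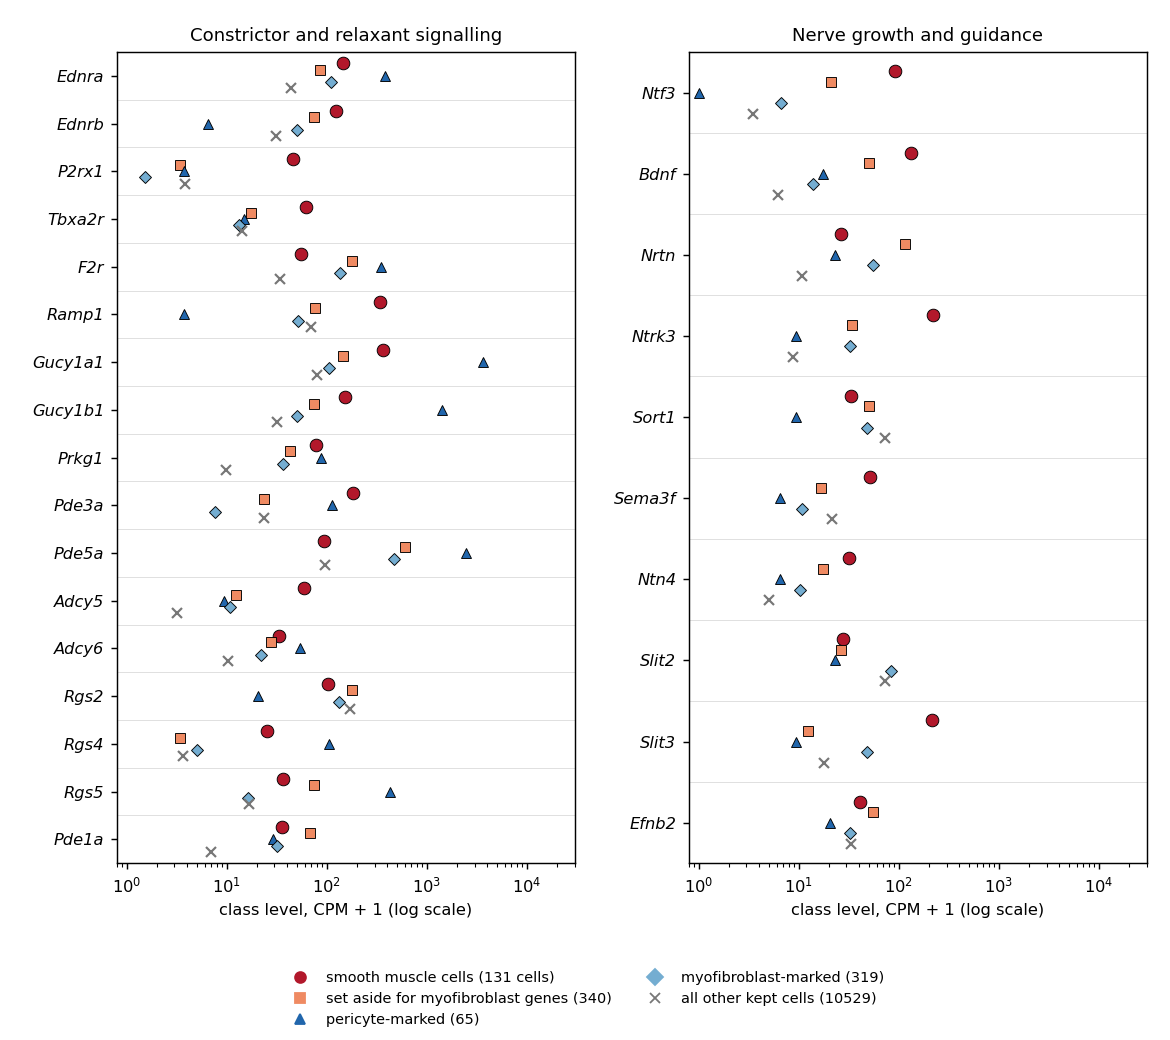
Levels in 5 groups of cells of every constrictor, relaxant and nerve-signal gene with 20 CPM or more in smooth muscle cells, as CPM + 1 on a log axis; each symbol is 1 group. P2rx1, Ramp1, Ntf3, Bdnf, Ntrk3 and Slit3 are highest in smooth muscle cells, whereas Gucy1a1, Gucy1b1 and Pde5a are highest in pericyte-marked cells.

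Genes of nerve growth and guidance were found both high and low in the members. Ntrk3, the receptor of neurotrophin 3, was at 217 CPM in smooth muscle cells, 32.8 in set-aside cells, 31.3 in myofibroblast-marked cells and 7.80 in all other kept cells. It was detected in 65.6% of members (exact 95% interval 56.9 to 73.7%) against 1.60% of Ptprc-positive cells. Its ligand Ntf3 was at 90.7 CPM in smooth muscle cells, 19.9 in set-aside cells and 0 in pericyte-marked cells. Bdnf, brain-derived neurotrophic factor, was at 130 CPM in smooth muscle cells, 49.4 in set-aside cells and 16.6 in pericyte-marked cells. Slit3, a secreted guidance protein, was at 212 CPM in smooth muscle cells, 11.4 in set-aside cells and 47.1 in myofibroblast-marked cells. Nrtn, the GDNF-family ligand neurturin, was lower, at 25.5 CPM in smooth muscle cells against 115 CPM in set-aside cells. Of 25 genes of this list tested over all other kept cells, 9 had a log2 ratio of 1 or more and 7 one of -1 or less, beside 10.6% and 23% of all genes. Its median was -0.24, or 0.70 when a gene at 0 takes the floor value.

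The neurotrophin genes Bdnf and Ntf3 were each detected in part of the members. Both were detected in 12 cells, Bdnf alone in 35, Ntf3 alone in 37 and neither in 47. Ntrk3 was detected in 35 of the 47 cells with Bdnf and in 36 of the 49 cells with Ntf3. In sparse values a gene at 0 in a cell may still be expressed, so these counts describe detection only.

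Among the matrix genes, elastin was high in these cells. Eln, the core of elastic fibres, was at 19331 CPM in smooth muscle cells, 3236 in set-aside cells, 2703 in myofibroblast-marked cells, 670 in pericyte-marked cells and 900 in all other kept cells. It took 1.93% of all corrected UMIs of the class, and from 0 to 4.19% in single members, with a median of 1.84%. Fbln5, the fibulin that guides elastin assembly, was at 401 CPM in smooth muscle cells against 39.9 CPM in set-aside cells. The crosslinking oxidases Lox and Loxl1 were at 161 and 550 CPM in smooth muscle cells, 67.0 and 346 CPM in set-aside cells, and 21.8 and 84.5 CPM in all others. Genes of microfibrils were lower than in set-aside cells, with Mfap5 at 17.9 against 300 CPM, Mfap2 at 144 against 689 CPM and Ltbp2 at 106 against 954 CPM. Over set-aside cells 4 of 20 elastic fibre genes had a log2 ratio of 1 or more and 8 one of -1 or less, beside 5.32% and 15.4% of all genes, with a median of -0.66.

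Collagen genes were mostly lower in the members than in set-aside and myofibroblast-marked cells. Col3a1 was at 562 CPM in smooth muscle cells, 2263 in set-aside cells and 3942 in myofibroblast-marked cells. Col1a1 was at 962, 1378 and 2691 CPM in these groups. None of 12 collagens tested had a log2 ratio of 1 or more over set-aside cells and 7 had one of -1 or less, read against the same shares of all genes. Basement membrane genes were split against pericyte-marked cells, with 7 of 26 at 1 or more and 13 at -1 or less, beside 12.4% and 11.8% of all genes. Col4a1 was at 479 CPM in smooth muscle cells and 3374 CPM in pericyte-marked cells. Itga8, an integrin chain of mural cells, was at 282 CPM in smooth muscle cells, 127 in pericyte-marked cells and 15.7 in set-aside cells. Itga7, a laminin receptor chain of muscle, was at 63.8, 11.1 and 4.27 CPM in these groups. Cav1, the coat protein of caveolae, was at 598 CPM in smooth muscle cells, 11.1 in pericyte-marked cells and 103 in set-aside cells.

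The 15 genes of highest ratio over all other kept cells, among those of 100 CPM or more outside the rule, included secreted signals and matrix genes. They were Actc1, Cxcl13, Timp4, Map3k7cl, Cdh6, Grp, Wisp2, Ptprz1, Gpc6, Myom1, Thsd4, Olfml2a, Adam33, Aoc3 and Adamts12, with log2 ratios of 6.27 down to 4.64. Grp, gastrin-releasing peptide, was at 1240 CPM in smooth muscle cells, 77.9 in set-aside cells, 0 in pericyte-marked cells and 22.8 in all other kept cells. Cxcl13, a chemokine known for drawing B cells, was at 305 CPM in smooth muscle cells and between 2.05 and 3.80 CPM in the other groups. Timp4, an inhibitor of metalloproteinases, was at 216 CPM in smooth muscle cells and 9.50 CPM in set-aside cells, and at 0 in pericyte-marked and myofibroblast-marked cells. Cdh6, a cadherin, was at 317 CPM in smooth muscle cells against 17.6 in set-aside cells, and was detected in 78.6% of members and 0.757% of Ptprc-positive cells. Aoc3, an amine oxidase of vessel walls, was the only 1 of the 15 above 100 CPM in pericyte-marked cells, at 105 CPM against 194 CPM in smooth muscle cells.

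**Figure D4:**
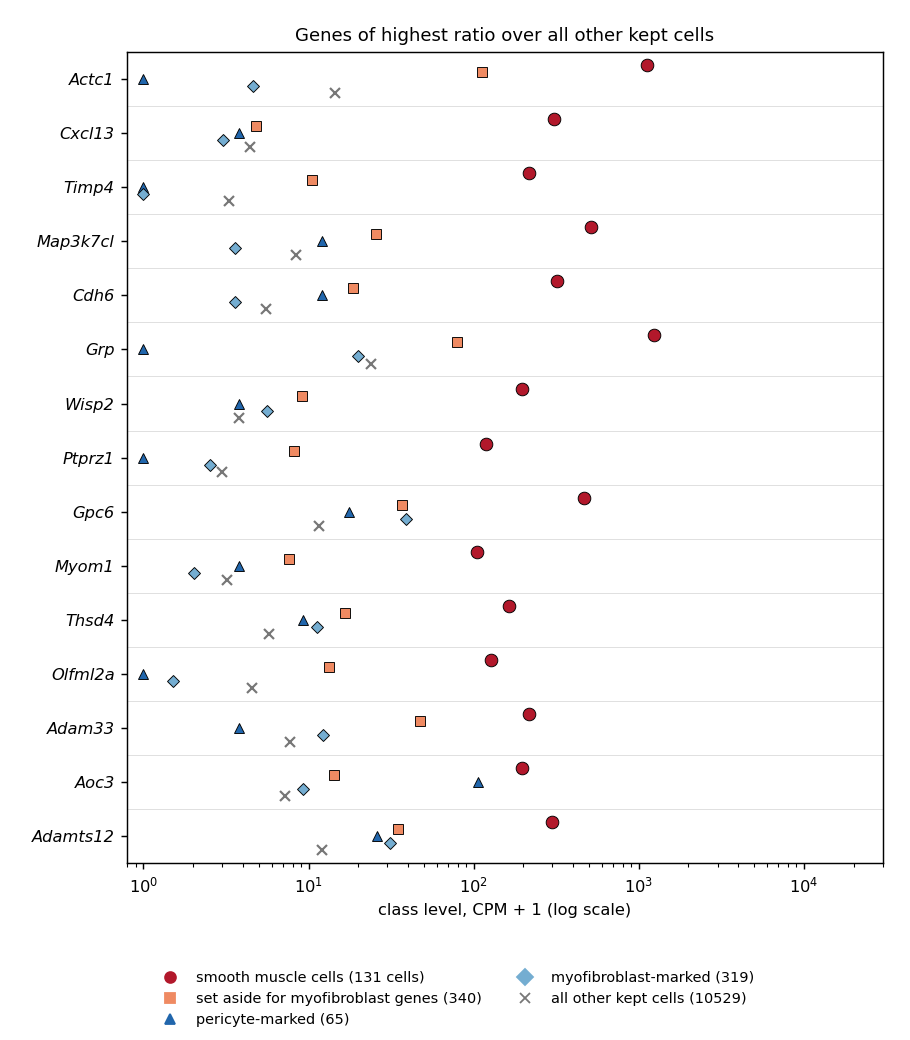
Levels in 5 groups of cells of the 15 genes with the highest ratio over all other kept cells, as CPM + 1 on a log axis; each symbol is 1 group. The smooth muscle symbol lies to the right of the other 4 for every gene, and Actc1 and Grp are next highest in set-aside cells, at 112 and 77.9 CPM.

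Pericytes, the other mural cells, shared Notch3 and Heyl with the members but differed in other genes. Against pericyte-marked cells 12.4% of 6963 genes had a log2 ratio of 1 or more and 11.8% one of -1 or less. These 860 and 822 genes include many with few UMIs, and 231 and 185 remained when at least 100 UMIs were asked for. Besides Grp, Actc1 and Gata6, the highest ratios included Igfbp5, an IGF-binding protein, at 2192 CPM in smooth muscle cells against 8.31 CPM in pericyte-marked cells. Ptgis, prostacyclin synthase, was at 134 CPM in smooth muscle cells and 0 in pericyte-marked cells. The lowest ratios were those of Fam162b, Gap43, Cpa1, Lepr, Fst, Sstr2 and Card9, all listed at 0 in the members and at 136 to 363 CPM in pericyte-marked cells, with Nostrin, Mest and Clstn2. Postn, periostin, was at 550 CPM in smooth muscle cells and 3327 CPM in pericyte-marked cells, and Pdgfrb, the PDGF receptor of mural cells, at 227 and 1396 CPM. The 3 corrected UMIs of the floor make 8.31 CPM in the 65 pericyte-marked cells.

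Against myofibroblast-marked cells 5.38% of 9975 genes had a log2 ratio of 1 or more and 15.8% one of -1 or less. Of 31 contractile genes, 15 had a ratio of 1 or more and 2 one of -1 or less, with a median of 0.96. The myofibroblast-marked cells had to have fewer than 3 of the smooth muscle genes, so this count follows the split and is a description. Tgfbi, a matrix protein induced by TGF-beta, was at 30.6 CPM in smooth muscle cells, 1416 in myofibroblast-marked cells and 2845 in set-aside cells. Wif1, a Wnt inhibitor, was at 2.55, 121 and 192 CPM in these groups, and Robo2, a Slit receptor, at 6.38, 241 and 235 CPM. Egfem1, Adgrl3 and Wnt5a were likewise among the lowest against both groups. Car2, Cygb, Cd34 and Mfap5 were among the 10 lowest against myofibroblast-marked cells. S100b, Rgs16, Adgrg2, Pappa2 and Pdlim3 were among the 10 lowest against set-aside cells, where S100b was at 0 against 139 CPM. Pi15, Spon1 and Serpinb6b were among the 10 highest over set-aside cells, with Spon1, a matrix protein, at 331 against 15.7 CPM.

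Immediate early genes, which also rise when tissue is dissociated, were high in the members. The 15 genes of that list summed to 13154 CPM in smooth muscle cells, 4967 in set-aside cells, 2028 in pericyte-marked cells, 5445 in myofibroblast-marked cells and 4652 in all other kept cells. Fos was at 3953 CPM in smooth muscle cells and 404 CPM in all others, Jun at 1491 and 303 CPM, and Atf3 at 729 and 128 CPM. Single members held from 0.0745% to 4.47% of their UMIs in these genes, with a median of 1.23%. Of the 15 genes, 8 had a log2 ratio of 1 or more over all other kept cells and 0 one of -1 or less, beside 10.6% and 23% of all genes. Whether these transcripts were present in the tissue or came with cell preparation was not tested.

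Cells with transcripts of S and G2/M phase genes were found among the members. At least 5 of 20 phase genes were detected in 24 of 131 members (18.3%, exact 95% interval 12.1 to 26.0%). The share was 26.2% in set-aside cells, 32.9% in myofibroblast-marked cells, 20% in pericyte-marked cells and 18.4% in all other kept cells, with median detected genes as given above. Within the members, the 24 cells had a median of 2868 detected genes and the other 107 had 2291. Between them, 9.14% of 5438 genes had a log2 ratio of 1 or more and 6.05% one of -1 or less. Tagln was at 4788 CPM in the 24 cells and 7301 CPM in the 107, Acta2 at 8203 and 9313 CPM, and Lmod1 at 358 and 565 CPM. Of 28 contractile genes, 21 had a ratio below 0, with a median of -0.17, against 2437 of 5438 genes and a median of 0.07 over all. Bdnf was at 46.4 CPM in the 24 cells and 150 CPM in the 107, and Ntrk3 at 106 and 244 CPM.

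The members varied among themselves in Grp, Cxcl13, Actc1 and the immediate early genes. Grp was at 0 in 42 cells, had a median of 615 CPM per cell and reached 6624 CPM. It was detected together with Cxcl13 in 58 cells, alone in 31, and Cxcl13 without it in 12. Leiden clustering of the members, with the rule and marker genes left out, gave 4 groups of 46, 43, 17 and 25 cells. In every one vascular markers outnumbered airway markers, with medians of 3 to 4 against 1 to 1.5 per cell. The group of 17 held 16 of the 24 cells with phase genes. The first 2 groups differed in immediate early genes, at 7093 CPM in the 46 cells and 19819 CPM in the 43. The group of 43 was also led by basophil and other immune genes such as Mcpt8, Ccl4 and Srgn, with Mcpt8 and 37 of the 39 Ccl4 UMIs of all members in 1 cell each, and its 12 immune markers summed to 810 CPM against 426 to 604 CPM in the other groups. In the group of 25, Grp was at 2486 CPM and Fbln5 at 1168 CPM, against 275 to 1692 CPM and 133 to 318 CPM in the other 3, and Notch3 was at 117 against 346 to 417 CPM. That group was led by Adh1 and by genes known from fibroblasts, with Sfrp2 at 214 CPM against 23.8 CPM in all other members and Cdh11 at 149 against 14.3 CPM. Col13a1 was at 58.4 CPM there against 0 in all other members, from 9 UMIs in 4 cells. In the group of 46, Dcn, the fibroblast proteoglycan decorin, was at 62.6 CPM against 0 in all other members, from 17 UMIs in 2 cells. The part of such cells or their RNA in these group differences was not tested.

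**Figure D5:**
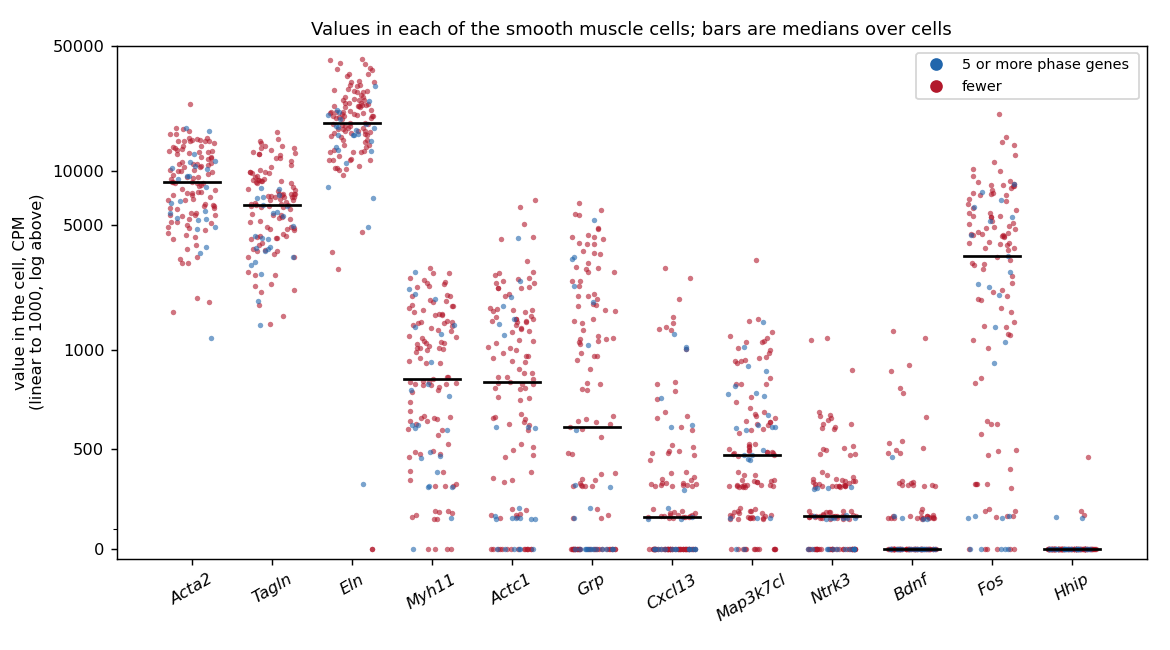
Value of 12 genes in each of the 131 smooth muscle cells, in CPM, on an axis that is linear to 1000 and logarithmic above; points are cells, bars are medians over cells and blue points are the 24 cells with 5 or more phase genes. Acta2 and Tagln are above 0 in every cell, Grp runs from 0 to 6624 CPM, and Hhip is at 0 in nearly all cells.

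The bulk sample shows which of these genes were present in sorted PDGFRA+ cells, at a depth of 171910584 reads. In bulk RNA fewer cells of a type and less RNA per cell cannot be told apart, and whether smooth muscle cells entered the sort was not tested. Of the 7 smooth muscle genes of the rule, 6 were at 10 CPM or more, with Acta2 at 3330 CPM (2660 TPM, per kilobase) and Myh11 at 520 CPM (178 TPM). Of the 15 genes of highest ratio in the members, 9 were under 10 CPM there, from Timp4 at 0.291 CPM to Wisp2 at 9.44 CPM, with Grp at 2.61 CPM and Map3k7cl at 5.18 CPM. The other 6 were at 10 CPM or more, from Thsd4 at 31.7 CPM and Actc1 at 38.3 CPM to Aoc3 at 62.6 CPM. Of other genes high in the members, Kcna5 and P2rx1 were at 0.657 and 0.430 CPM in the bulk sample, while Igfbp5, Slit3, Spon1 and Ntrk3 were at 603, 162, 128 and 41.9 CPM. Myofibroblast genes that were low in the members were high there, with Tgfbi at 6057 CPM and Wnt5a at 199.8 CPM. Eln was at 23627 CPM (12292 TPM) in the bulk sample. The bulk rank of the 15 genes of highest ratio had a median at the 39.1 percentile of 16906 genes, and that of the contractile list at the 97.1 percentile. Red cell genes were also present, with Hba-a1 at 4125 CPM. Bulk and single-cell levels come from different protocols and were not set against each other as ratios.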

How the data were processed

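The submitters' processing notes name Cell Ranger 5.0 and Seurat 3.2.2 for single cells. For bulk RNA they name Trim Galore, HISAT2, featureCounts, DESeq2 and mm10, without versions. No genome build for the single cells was found in the sources used here. The deposited single-cell values, for 17758 genes and 11306 distinct cell barcodes, are used as a score: whole numbers whose cell totals differ by at most 1.79-fold, so they appear corrected for depth (median 5537 UMIs and 2012 detected genes per cell), by a step that no label names. The plan had assumed raw counts, so no count model, Poisson interval or thinning was used. The deposited bulk table gives the authors' expected counts (15.9% of values not whole) and TPM, both used here, and 1 column of FPKM values, not used.

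The cells, gene lists and comparisons were chosen with earlier results of these data known. The comparison with set-aside cells was added after the data were seen. Levels are summed values scaled to 1000000 over a group of cells, ratios use genes with at least 20 UMIs over both groups, and shares carry exact Clopper-Pearson 95% intervals. Such intervals cover counting error only. Named genes are up to 4 per list with the largest absolute ratio over all other kept cells among those with at least 100 UMIs, every receptor or nerve gene at 20 CPM or more, the 15 highest over all other kept cells and the 10 highest and lowest against the other groups among genes of 100 CPM or more, and the genes of the rule. Other list members named were chosen after their values were seen. Some genes this rule picks are not reported here. Doublets were predicted with Scrublet in scanpy 1.11.5 (480 of 10660 cells, 1 of the 131 members) and kept. Clusters were made with the Leiden function of scanpy in its igraph setting. Whether the deposited table had doublets removed is not stated. Positions are mm10 and promoters RefSeq GRCm38.p6. The scripts were tested on simulated data.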

Additional observations from a re-analysis of the deposited data

How the results depend on the processing

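No paired analysis was possible because each group is 1 sample and the results come from no test. The class held 1.49% of kept cells with at least 2 of the 6 smooth muscle genes required (159 cells) and 0.750% with at least 4 (80 cells). With 5 CPM added in place of 1, the genes at a log2 ratio of 1 or more over all other kept cells numbered 1078 instead of 1638, and those at -1 or less 1955 instead of 3551. With at least 100 UMIs asked for in place of 20, the higher and lower genes numbered 231 and 185 against pericyte-marked cells (860 and 822 before), 215 and 486 against myofibroblast-marked cells (537 and 1579), 200 and 514 against set-aside cells (534 and 1545), and 14 and 175 for airway-marked against vascular-marked cells (322 and 1552). With at least 1 UMI they numbered 3334 and 2276, 1443 and 3097, 1383 and 2577, and 1661 and 7557 in the same order, since fewer or more genes were then tested. Asking for 3 markers in the airway and vascular split gave 492 higher genes in place of 322, with only 3 airway-marked and 100 vascular-marked cells. Of 84 receptor and nerve genes, 17 were detected in at least 20% of members, and 8 when a value of 2 or more was asked for. The clusters gave no airway group, so that alternative has no value. Among 128 log2 ratios of 32 genes over 13 settings, 102 of 1664 values moved over 1.5-fold. Of the ratios at 1 or more or at -1 or less in the main setting, 0 changed sign, and smaller ratios were not followed for sign. Leaving out the 24 members with phase genes moved 0 of the 128 ratios, and keeping the 111 members with at most 0.1% of UMIs from immune markers moved 4. Single-cell depth limits genes near 3.83 CPM in the members.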
